A study of Mus musculus with 2 samples.

Results

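The subject is 9 annotated miRNA loci whose reads lay almost wholly on the opposite strand, where a known miRNA gene is annotated. They are Gm25252 (opposite Mir376a), Gm24321 (Mir409), Gm25750 (Mir380), Mir299b (Mir299a), Gm25927 (Mirlet7e), Gm24111 (Mirlet7f-1), Gm25641 (Mir9-1), Gm24083 (Mir191) and Gm25301 (Mir378a), 9 of the 1973 miRNA genes in the count tables. The loci were chosen by their other-strand counts, that is, by reads that map to the locus but run against its annotated strand, so the height of those counts is a description and supports nothing by itself. MicroRNA sequencing was done on total RNA of the neural tube, the forerunner of brain and spinal cord, of B6NCrl mice at embryonic day 14.5. The 2 libraries form 1 group with no treatment or second genotype stated: replicate 1 came from pup 1 of dam 1 and replicate 2 from pup 1 of dam 2. The labels call each sample a single neural tube and also give its sex as male and female pooled, which the data used here do not settle, and with 1 library per dam litter and library cannot be told apart.

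A miRNA gene is transcribed into a hairpin, from which Drosha and Dicer cut a duplex of about the length of the mature miRNA. Either arm of the hairpin, 5p or 3p, can be loaded into an Argonaute protein, and its seed, bases 2 to 8, pairs with target mRNAs. The reverse complement of a hairpin can often be drawn as a hairpin too, so annotation pipelines have placed miRNA genes on both strands of 1 locus. A strand-specific count then tells which strand the small RNA came from. Among the miRNA genes opposite the 9 loci, let-7e and let-7f belong to the let-7 family, which rises as cells differentiate and represses Lin28 and Hmga2. MiR-9 is a brain miRNA that promotes neurogenesis. Mir376a, Mir409, Mir380 and Mir299a lie in the maternally expressed miRNA cluster of the imprinted Dlk1-Dio3 region, and miR-376 transcripts are known substrates of A-to-I editing in brain. Mir191 shares a primary transcript with Mir425, and Mir378a lies in Ppargc1b, the gene of a coactivator of mitochondrial metabolism.

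The mature sequences below are those of the opposite miRNA genes, from RefSeq on GRCm38.p6, the build also called mm10. They are shown because they are the small RNAs annotated on the strand that carried the reads. RefSeq held 8 of the 9 genes, all at the GENCODE positions, and Mir378a is named only. Capitals mark the seed.
miR-376a-5p: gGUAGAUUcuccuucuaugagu
miR-376a-3p: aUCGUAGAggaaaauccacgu
miR-409-5p: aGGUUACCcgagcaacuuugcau
miR-409-3p: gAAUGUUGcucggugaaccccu
miR-380-5p: aUGGUUGAccauagaacaugcg
miR-380-3p: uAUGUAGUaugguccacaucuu
miR-299a-5p: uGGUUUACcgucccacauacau
miR-299a-3p: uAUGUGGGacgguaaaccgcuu
let-7e-5p: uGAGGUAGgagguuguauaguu
let-7e-3p: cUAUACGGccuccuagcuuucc
let-7f-5p: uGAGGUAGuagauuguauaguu
let-7f-1-3p: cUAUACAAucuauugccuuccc
miR-9-5p: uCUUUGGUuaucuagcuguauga
miR-9-3p: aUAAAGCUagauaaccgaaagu
miR-191-5p: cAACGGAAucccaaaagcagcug
miR-191-3p: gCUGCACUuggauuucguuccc

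Of these arms, let-7e-5p and let-7f-5p share the seed GAGGUAG, and no other seed occurred more than 1 time among the 16 mature sequences of the 8 genes. The tables count reads per gene, so they do not tell which arm the reads came from, nor where within the locus they lay. Of the 16 mature sequences, 13 occurred in no other RefSeq hairpin. The 3 exceptions were let-7f-5p, also in Mirlet7f-2, and both arms of miR-9, also in Mir9-2 and Mir9-3. Reads that fit several positions entered no gene count, and their share was 32.4% in replicate 1 and 33.3% in replicate 2. Of the 20-base windows of the Mir9-1 hairpin, 28 of 70 recurred in another RefSeq hairpin, as did 4 of 70 for Mirlet7f-1 and 4 of 44 for Mir299a. None recurred for Mir376a, Mir409, Mir380, Mirlet7e or Mir191.

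How the strands face each other is shown for Mir409, which is at chr12:109743158-109743236 on the plus strand, and Gm24321, at chr12:109743158-109743237 on the minus strand. Both are printed 5′ to 3′. Capitals mark the 2 mature arms in Mir409 and, in Gm24321, the bases that face them.
Mir409: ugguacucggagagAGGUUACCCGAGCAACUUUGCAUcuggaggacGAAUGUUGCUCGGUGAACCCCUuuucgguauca
Gm24321: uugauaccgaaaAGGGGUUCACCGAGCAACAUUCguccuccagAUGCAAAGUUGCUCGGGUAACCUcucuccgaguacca

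All 8 hairpins that could be compared matched the reverse complement of their member over the bases in common. Their positions on opposite strands of the same stretch make this so. In 8 of the 9 loci, Mir378a's included, the member's interval holds the opposite miRNA gene whole, with 61 to 93 bases in common. Mir299b, at 49 bases, is instead shorter than Mir299a, at 63 bases, and lies inside it. This locus is almost a palindrome, as its hairpins show, with capitals for the mature arms of Mir299a at chr12:109710638-109710700 and of Mir299b at chr12:109710645-109710693.
Mir299a: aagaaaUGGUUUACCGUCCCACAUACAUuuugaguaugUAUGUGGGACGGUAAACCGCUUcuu
Mir299b: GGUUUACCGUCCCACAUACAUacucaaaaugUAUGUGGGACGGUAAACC

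Over the 49 facing bases, both read 5′ to 3′, the strands differ at 5 positions, all between the arms, and are identical for 21 bases on each side of it. MiR-299b-5p is contained whole, as 21 bases, in miR-299a-5p, and the 18 bases of miR-299b-3p begin miR-299a-3p. The longest run a hairpin shared with its own reverse complement was 21 bases for Mir299a and 6 to 14 bases for the other 7 hairpins. A read that lies wholly within such a run fits both strands.

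Depth set the limits of these counts. The tables held 5941830 reads for replicate 1 and 7074029 for replicate 2. Of these, 3172235 and 3671915 matched the annotated strand of a miRNA gene, and 40538 and 55434 its other strand, or 1.26% and 1.49% of gene reads. Levels are in CPM, counts per 1000000 sense-strand counts. The limit that 0 counts sets is 0.946 CPM for replicate 1 and 0.817 CPM for replicate 2. Errors are SD over both libraries (n = 2). Intervals and limits cover counting error only. Of the 11 neural markers, 10 had a row of their own. Their summed sense level was 17975 CPM for replicate 1 and 17184 CPM for replicate 2. Mir137 led at 9457 ± 193 CPM, before Mir135b at 4762 CPM and Mir92b at 2498 CPM. Of the 10, 7 had at least 10 counts in both libraries. The lowest means were 6.44 CPM for Mir124a-1, 2.40 for Mir124a-2, 1.78 for Mir124a-3 and 1.33 for Mir9-2. Both arms of miR-9 occur in each miR-9 hairpin, so reads of them fit several positions and are in none of these counts. Shared sequence among the other markers was not examined, so low values and the order of the markers need not follow expression.

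The 9 loci held 39587 of the other-strand counts of replicate 1 (97.7%) and 53749 of those of replicate 2 (97.0%). The loci were chosen by these counts, so the shares are a description and a high value was built in. On their own annotated strand the same loci held 1 count in replicate 1 and 0 in replicate 2. In the sense-strand column these reads are booked as belonging to no gene, and they made up 24.2% of such reads in replicate 1 and 25.2% in replicate 2. As a level they came to 13559 ± 1526 CPM. The 4 highest loci, Gm25252, Gm24321, Gm25927 and Gm24083, took 85.6% of the other-strand column in replicate 1 and 79.1% in replicate 2.

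**Figure D1:**
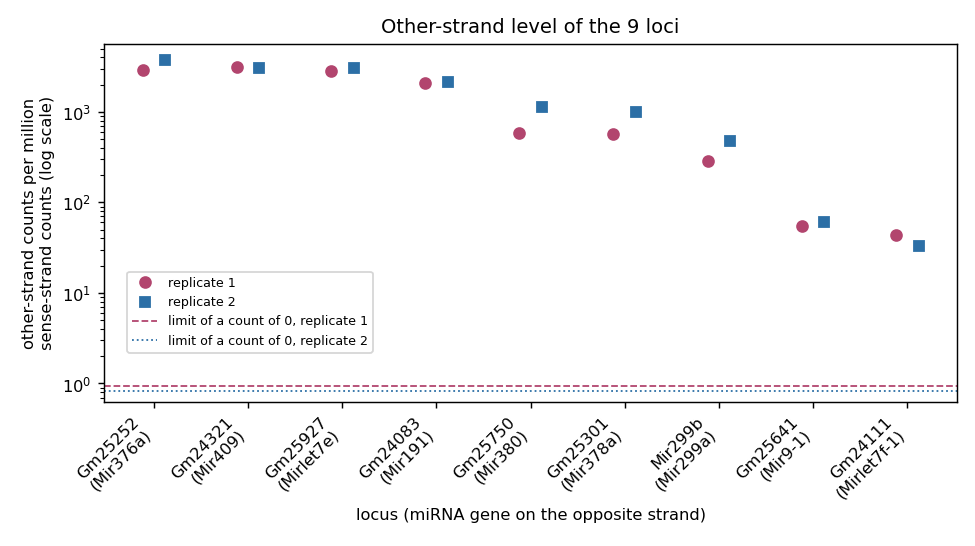
Other-strand CPM (log axis) for the 9 loci, circles for replicate 1 and squares for replicate 2, in order of their mean, with the limit that a count of 0 allows drawn as a line for each library. The means run between 38.4 CPM for Gm24111 and 3296 CPM for Gm25252, all above the limits of 0.946 and 0.817 CPM.

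Gm25252, opposite Mir376a at chr12:109723781-109723848 in the Dlk1-Dio3 cluster, had the highest mean. It held 9122 other-strand counts in replicate 1 and 13648 in replicate 2, or 2876 and 3717 CPM, and 0 counts on its own strand. Set against the 3 counts that a 0 allows, the other strand was at least 3041-fold higher in replicate 1. In replicate 2 it was at least 4549-fold higher. The locus was chosen by these counts, so both folds are a description. Gm24321, opposite Mir409, held 9813 counts in replicate 1 and 11328 in replicate 2, or 3093 and 3085 CPM, also with 0 on its own strand. Scaled by sense-strand totals, the libraries were further apart for Gm25252 than for Gm24321, an order that depends on the scaling, as the ratios given later show. Mir409 lies in an intron of the noncoding host Mirg, while GENCODE places Mir376a in no host gene.

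Gm25927, opposite Mirlet7e at chr17:17830352-17830444 in an intron of Spaca6, held 9061 counts in replicate 1 and 11067 in replicate 2, or 2856 and 3014 CPM. Gm24083, opposite Mir191 at chr9:108568319-108568392 in an exon of the long noncoding RNA gene 4833445I07Rik, held 6694 and 7805 counts in replicates 1 and 2, or 2110 and 2126 CPM. Neither had a count on its own strand. Their libraries were close in CPM, though not under every scaling. Gm25927, with a mean of 2935 CPM, stood near Gm24321 at 3089 CPM and Gm25252 at 3296 CPM. Gm24083 stood lower, with a mean of 2118 CPM.

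Gm25750, opposite Mir380 at chr12:109711803-109711863, held 1875 counts in replicate 1 and 4173 in replicate 2, or 591 and 1136 CPM. Gm25301, opposite Mir378a at chr18:61397835-61397900 in an intron of Ppargc1b, held 1804 and 3632 counts, or 569 CPM in replicate 1 and 989 CPM in replicate 2. Mir299b, opposite Mir299a, held 904 and 1752 counts, or 285 CPM in replicate 1 and 477 CPM in replicate 2. Replicate 2 was the higher library for these 3 loci. Mir299b was the member with a count on its own strand, 1 read in replicate 1 (0.110% of the reads of the locus, exact 95% interval 0.00280 to 0.614) and 0 in replicate 2 (interval up to 0.210%). Both mature sequences of Mir299b also occur whole in the Mir299a hairpin, so reads of them fit both strands and entered neither count. These intervals therefore do not bound the share of mature miR-299b.

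The lowest members were Gm25641 and Gm24111. Gm25641, opposite Mir9-1 at chr3:88215598-88215686 in an intron of the long noncoding RNA gene Gm3764, held 174 counts in replicate 1 and 224 in replicate 2, or 54.9 and 61.0 CPM. Gm24111, opposite Mirlet7f-1 at chr13:48537829-48537917 in an exon of the long noncoding RNA gene 6720427I07Rik, held 140 and 120 counts, or 44.1 CPM in replicate 1 and 32.7 CPM in replicate 2. Both arms of miR-9 and the 5p arm of let-7f occur in other hairpins, so reads of these mature sequences fit several positions and are not in these counts. GENCODE placed no gene of a type other than miRNA on the annotated strand of any of the 9 loci. Other miRNA genes on that strand were not searched for.

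Membership did not follow a level alone. Mir497b, opposite Mir497, with 529 other-strand counts in replicate 1 and 823 in replicate 2, and Mir142b, opposite Mir142, with 316 and 699, are not among the 9 loci although they exceed Gm25641 and Gm24111. The next row after these was Mir203 at 12.4 CPM, with 39 and 46 other-strand counts beside 1185 and 1741 sense counts. Mir3074-1, opposite Mir24-1, followed at 7.34 CPM and Mir708 at 2.29 CPM. Of the 1973 rows, 1917 had no other-strand count in either library.

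In all, 32 rows had a GENCODE miRNA gene on the opposite strand, and for none of them did that opposite gene have a row of its own. They fell apart by strand. The 9 loci with Mir497b and Mir142b, 11 rows, held 0 or 1 sense count over both libraries and at least 100 other-strand counts. In 19 rows the sense strand was the higher, with at most 40 other-strand counts in a library, the highest being Mir3074-1 with 12 in replicate 1 and 40 in replicate 2. Mir126a, the endothelial miRNA gene opposite Mir126b, held 26782 and 63418 sense counts beside 1 and 5 on the other strand. The remaining 2 rows held no count. Of the members, 8 carry a provisional Gm symbol. Of the 835 other Gm-named rows, 797 held no count on either strand, 4 reached 10 sense counts in a library and 0 reached 10 other-strand counts.

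**Figure D2:**
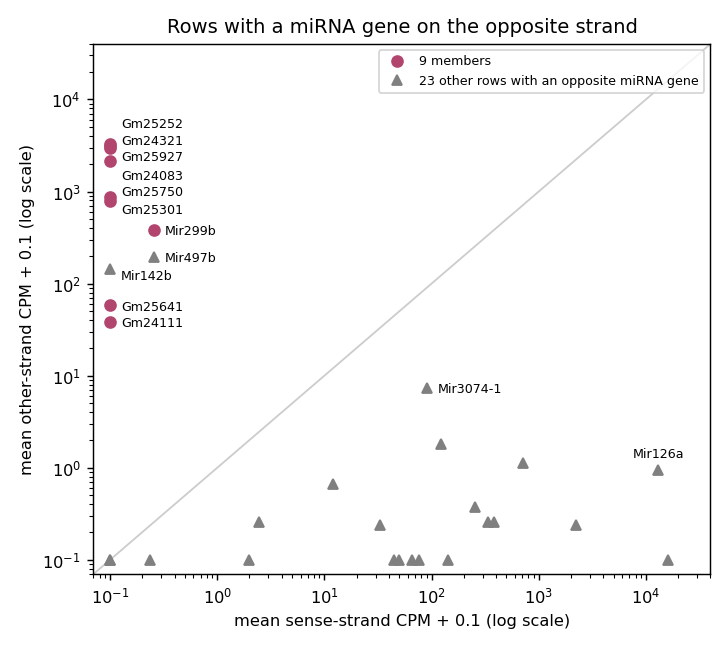
Mean other-strand CPM against mean sense-strand CPM, each plus 0.1, on log axes for the 32 rows with a miRNA gene on the opposite strand, circles for the 9 members and triangles for the other 23 rows. The members, with Mir497b and Mir142b, stand at the left edge above the diagonal of equal counts, and the 19 rows with more sense than other-strand counts lie below it.

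Mir376a, Mir409, Mir380 and Mir299a belong to the imprinted cluster on chromosome 12, counted here over the listed Mirg miRNA genes. These levels rest on the counts that chose the members, and they are given as a description. The 33 genes of the cluster with a row of their own took 4.59% ± 0.128 of sense counts, and 30 had at least 10 counts in both libraries. With the other-strand reads of the 4 members the cluster stood at 5.36% ± 0.0166, the added reads making up 12.8% of its reads in replicate 1 and 15.7% in replicate 2. Mir376a would rank 6th of the 37 genes by reads per gene, with no division by length, next to Mir381 at 3338 ± 128 CPM. Mir409 would rank 7th at 3089 ± 5.91 CPM, beside Mir541 at 3083 ± 212 CPM, and the SD of Mir376a (595 CPM) covers the gaps among these 4 genes. Mir380 would rank 12th at 864 ± 386 CPM and Mir299a 16th at 381 ± 136 CPM. The relative of Mir376a with a row, Mir376c, had 376 ± 93.9 CPM, and Mir376b was not analysed here.

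**Figure D3:**
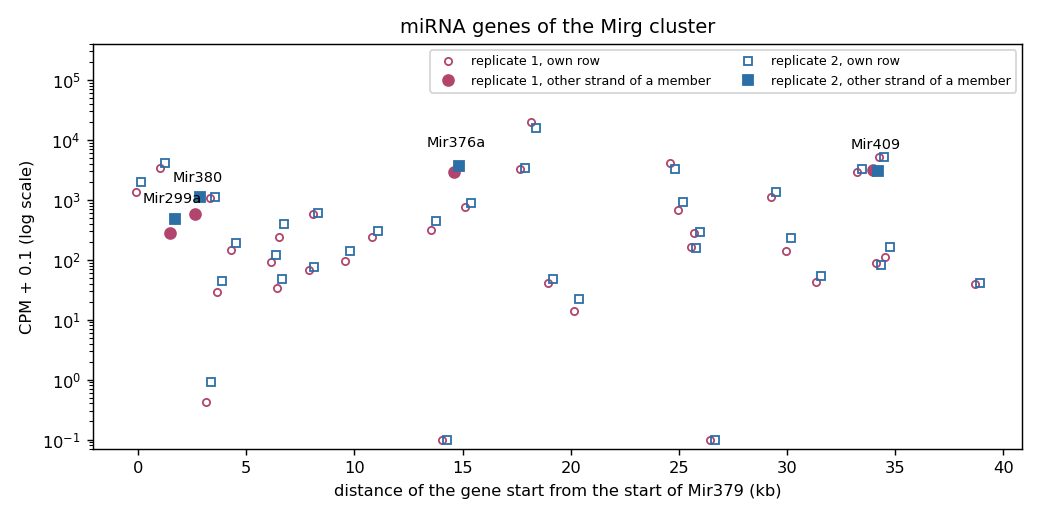
CPM plus 0.1 (log axis) of the Mirg cluster genes against the distance of each gene's start from the start of Mir379 in kb, open symbols for genes with a row of their own and filled symbols for reads on the other strand of a member, circles for replicate 1 and squares for replicate 2. Mir376a and Mir409 stand among the highest genes, below Mir487b at 18013 CPM, while Mir299a and Mir380 sit at the start of the cluster with replicate 2 above replicate 1.

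Levels on the strand of Mirlet7e placed it among the better covered let-7 genes. Reads that fit several positions are in none of these counts. How far the let-7 genes with a row share mature sequences with each other was not examined, so the ranks need not follow expression. The 10 family members with a row took 5.99% ± 0.920 of sense counts, and 6.28% ± 0.910 with the reads opposite Gm25927 and Gm24111, which added 0.290 percentage points in replicate 1 and 0.305 in replicate 2. Mirlet7e would rank 5th of 12 at 2935 ± 111 CPM, next to Mirlet7d at 3028 ± 693 CPM, and these neighbours did not differ beyond their spread. Mirlet7f-1 would rank last at 38.4 ± 8.10 CPM, against 966 ± 341 CPM for its copy Mirlet7f-2. Its arm let-7f-5p is in both hairpins, so neither value holds the reads that fit both. Mirlet7e lies 94 bases from Mir99b, at 17360 ± 386 CPM, and 367 bases from Mir125a, at 4843 ± 909 CPM, and was the lowest of the 3 clustered genes. Mirlet7f-1 was likewise the lowest of its cluster, below Mirlet7a-1 at 124 ± 51.6 CPM and Mirlet7d.

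The remaining loci lie opposite Mir191, Mir378a and Mir9-1. Mir191 lies 384 bases from Mir425, and its strand had 2118 ± 10.9 CPM, against 956 ± 180 CPM for Mir425. Reads of Mir191 made up 71.8% of this pair's reads in replicate 1 and 66.2% in replicate 2. The miR-378 genes with a row, Mir378b, Mir378c and Mir378d, held 5 counts together in replicate 1 and 11 in replicate 2. Thus 99.7% of the family's counted reads in each library lay on the strand of Mir378a. Reads that fit several positions are not in these counts, and shared sequence among the miR-378 genes was not examined. Of the 3 miR-9 genes, Mir9-3 held 1741 and 1784 sense counts in replicates 1 and 2 and Mir9-2 held 5 and 4, and Mir9-1 stood between them. Both arms of miR-9 occur in all 3 hairpins, so reads of these mature sequences are in none of these counts. The order of the 3 genes therefore need not follow expression.

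Between the libraries, 0 of the 9 loci were 2-fold apart. Each ratio is the log2 of replicate 1 over replicate 2, scaled by sense-strand totals after adding 0.5 to both counts, and with 1 library per dam there is no replicate check and no p-value. The same fold was passed by 7.14% of the 14 rows with at least 10 other-strand counts in a library, which include the 9 loci, and by 14.7% of the 360 rows with at least 10 sense counts in a library. The median log2 ratio was -0.15 over the loci, -0.40 over the 14 rows and -0.23 over the 360 rows. Scaling with TMM factors, a trimmed mean of the genes' ratios, moved all ratios by 0.21, which put the median of the loci at 0.060.

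In all, 4 loci were higher in replicate 2 under every scaling run. Gm25750 (Mir380) had a log2 ratio of -0.94 (exact 95% interval -1.02 to -0.86), or 1.92-fold higher in replicate 2. Gm25301 (Mir378a) had -0.80 (interval -0.88 to -0.72) and Mir299b (Mir299a) -0.74 (interval -0.86 to -0.63). Gm25252 (Mir376a) had -0.37 (interval -0.41 to -0.33). Gm24111 (Mirlet7f-1) stood on the other side at 0.43 (interval 0.07 to 0.80). The intervals of Gm24321 (0.00), Gm24083 (-0.01) and Gm25641 (-0.15) held 0 with sense-strand totals. With TMM that of Gm25641 still did, but Gm24321 stood at 0.22 (interval 0.18 to 0.26) and Gm24083 at 0.20 (interval 0.15 to 0.25), while Gm25252 stood at -0.16 (interval -0.20 to -0.12). Gm25927 (Mirlet7e) had -0.08 (interval -0.12 to -0.04), which turned to 0.14 with TMM.

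Beside their relatives the ratios spread unevenly. All 10 let-7 rows had ratios above 0, between 0.10 for Mirlet7b (interval 0.07 to 0.13) and 1.15 for Mirlet7c-2, and the interval of Mirlet7e lay below that of each of them. TMM leaves this order as it is. The clustered Mir99b stood at 0.05 (interval 0.03 to 0.06) and Mir125a at 0.39 (interval 0.35 to 0.42). In the Mirg cluster 25 of 30 rows had ratios below 0 and 5 above, with a median of -0.28 and a range of -0.74 to 0.33. With TMM the same rows split into 17 below 0 and 13 above, with a median of -0.062. Mir380 at -0.94 was lower than each of these 30, although its interval overlapped those of Mir496a (-0.91 to -0.57), Mir758 (-1.02 to -0.26) and Mir544 (-1.23 to -0.12). Mir409 at 0.00 matched Mir369 at 0.00 (interval -0.03 to 0.03), with Mir412 between them on the chromosome at 0.07 (interval -0.17 to 0.31). Mir425 at -0.39 (interval -0.46 to -0.32) lay below Mir191 at -0.01 (interval -0.06 to 0.04).

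**Figure D4:**
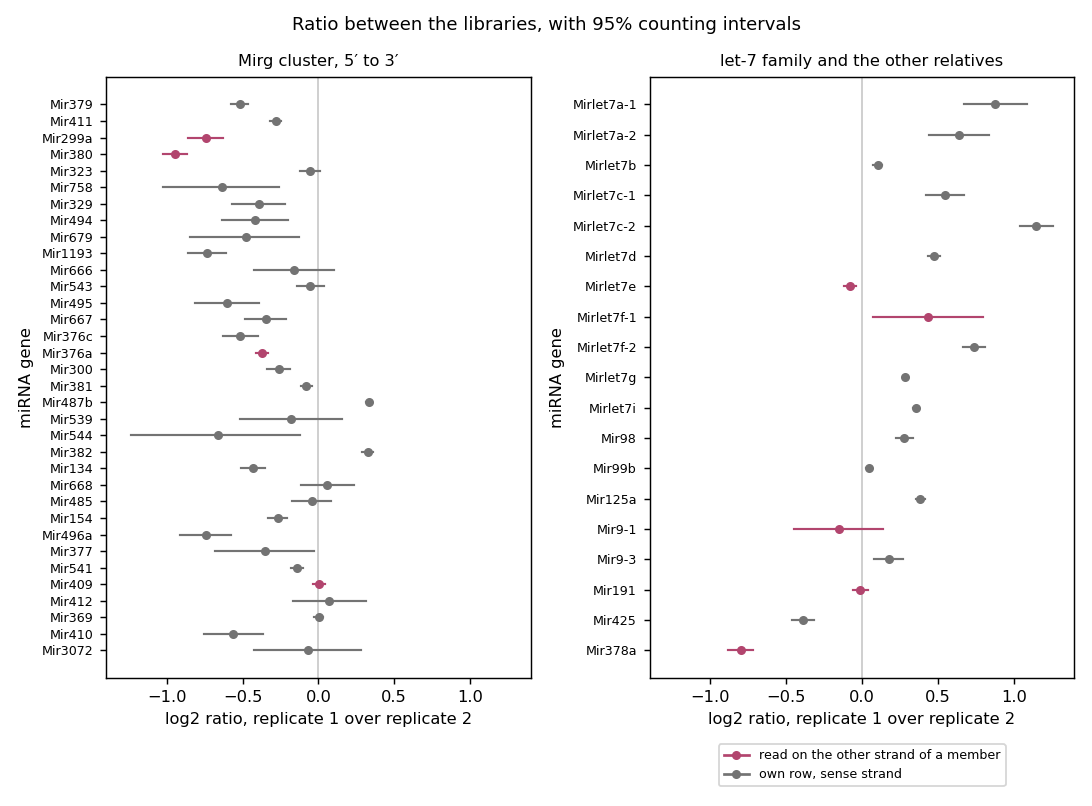
Log2 ratio of replicate 1 over replicate 2 with exact 95% counting intervals, scaled by sense-strand totals, for the Mirg cluster in genomic order (left) and for the let-7 family and the other relatives (right). Coloured points are genes read on the other strand of a member, grey points are genes with a row of their own. Mirlet7e at -0.08 lies left of all 10 grey let-7 genes, and Mir380 at -0.94 lies left of all grey genes of its cluster.

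Markers of other tissues also differed between the libraries. The summed level of the 3 sensory genes was 2109 CPM for replicate 1, against 15050 CPM for replicate 2, that of the 4 smooth muscle and mesenchyme genes 1197 and 4884 CPM, that of Mir126a of endothelium 8443 and 17271 CPM, and that of the 3 blood genes 137 and 256 CPM. All 11 of these genes were higher in replicate 2, and none was at 0. The rows as a whole leaned the same way, with a median log2 ratio of -0.23 over the 360 tested sense rows. Of the 53 of these that were 2-fold apart, 42 were higher in replicate 2. In blood, Mir451a (-0.46) and Mir150 (-0.32) lay nearer that median than Mir223 (-2.35). Mir206 of muscle had 44.1 and 51.5 CPM, and Mir122 of liver 43.5 and 35.9 CPM. The part of these tissues in the higher counts of Gm25750, Gm25301, Mir299b and Gm25252 in replicate 2 was not tested, and in bulk tissue fewer cells of a type and less RNA per cell cannot be told apart.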

How the data were processed

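The authors' raw counts per gene rest on mm10 and the gene annotation M4, per the deposited notes. The sources used here do not give the aligner or counter. Each deposited table had no header and 3 columns of counts, taken as either strand, sense strand and other strand: the first equals the sum of the others in every row, and 98.7% (replicate 1) and 98.5% (replicate 2) of gene counts lay in the sense column. The 4 rows that name no gene stayed out of library sizes, among them unmapped reads (11.5% and 11.8%) and ambiguous reads (0 in each).

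Identifiers were matched without version to GENCODE M21 on GRCm38, the same assembly as mm10, for 1894 of 1973 rows. Positions come from M21. The identifier version equals that of the tables for 8 of the 9 loci, Mir299b being the exception. Rows tested had at least 10 counts in a library. TMM factors came from edgeR 4.0.16 (R 4.3.3), exact binomial intervals from scipy 1.17.1. Ratios and intervals were tested on simulated data that held counting error alone, so variation between dams was not covered. Named genes were the 9 loci, the genes opposite them, listed relatives and the 5 next rows by other-strand level. The members and lists were chosen with earlier results of these data known.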

Additional observations from a re-analysis of the deposited data

How the results depend on the processing

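The share of other-strand counts held by the 9 loci, 97.3%, ranged from 97.0% to 97.7% with either library left out and was 97.4% over rows with at least 10 such counts in both. Their summed level was 7130 per 1000000 of all reads and 973072 per 1000000 other-strand counts. With TMM and with scaling by the other-strand total the median log2 ratio turned to 0.060 and 0.088, and the ratios turned to 0.14 and 0.16 for Gm25927, 0.060 and 0.088 for Gm25641 and 0.20 and 0.23 for Gm24083, the last also 0.030 with scaling by all reads, a scaling added after the data were seen. Gm24321, at 0.00, stood at 0.22, 0.24 and 0.045 under these scalings. Each of these scalings adds a constant to every ratio. Adding other-strand reads moved the Mir99b cluster to 2.51% of sense counts, the miR-9 genes to 0.0577%, Mir191 with Mir425 to 0.307%, the miR-378 genes to 0.0781% and the Mirg cluster to 5.36%. The count of 0 loci 2-fold apart was the same with TMM and with the other-strand total; the other count minimums kept all 9 loci and could not change it. No paired analysis was possible because the samples form 1 group. Gm24111 and Gm25641 had the lowest counts and the widest intervals. Depth is not their only limit, because reads of let-7f-5p and of both miR-9 arms fit several positions and entered no gene count.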
